A study of Mus musculus with 4 samples.

Results

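Glutamine (Gln) reaches cells through membrane carriers and is made or used by a small set of enzymes, and 9 genes of that route were followed here across the cells of mouse bone: the carriers Slc1a5, Slc38a1, Slc38a2, Slc7a5 and Slc3a2, the Gln-making enzyme Glul, and the glutamate-using enzymes Glud1, Got1 and Got2. They were taken by gene symbol and not by a cut on measured values, though with earlier results of these data known. They are 9 of the 31053 genes in the deposited count matrices. Their unique molecular identifiers (UMIs, each counting 1 captured RNA molecule) were read in barcodes with 1000 to 40000 UMIs and at most 10% of UMIs from mitochondrial genes.

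The samples were bone of wild-type mice: 2 libraries of control mice (Ctrl) and 2 of mice whose hindlimbs were unloaded by tail suspension (HLU) for 28 days. Cells were released by enzymes from leg bones whose marrow had been washed out, so the haematopoietic cells are those the wash left behind. Ctrl mice were kept without suspension, and no transgene, deletion or drug is labelled in either group. The series text places sampling at postnatal day 28 while the study's methods describe mice that were older when suspension began, so the age is not given here.

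Gln is the most abundant amino acid in blood. SLC1A5 and the sodium-coupled carriers SLC38A1 and SLC38A2 bring it into cells, and SLC7A5, bound to its heavy chain SLC3A2, exchanges Gln for leucine and other large neutral amino acids. Inside, glutaminase turns Gln into glutamate, which glutamate dehydrogenase (GLUD1) or transaminases (GOT1 in the cytosol, GOT2 in mitochondria) pass on to the tricarboxylic acid cycle. Glutamine synthetase (GLUL) runs the other way and builds Gln from glutamate and ammonia. In bone, Gln is used by cells that form matrix and by the monocyte-derived cells that resorb it.

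Of 40003 deposited barcodes, 32217 met the limits and 32128 of these, with at least 200 genes each, were clustered. After 2086 putative doublets were removed, 30042 remained, and 23893 of them fell in 7 classes named from markers: 6140 osteochondral barcodes (cartilage, bone-forming and stromal cells together), 1931 neutrophil progenitors, 5804 stage I neutrophils, 6150 stage II neutrophils, 1805 monocytes, 1394 B cells and 669 T cells. The 9 genes and 53 other genes of Gln transport and use were kept out of the clustering, so they do not define the classes. UMIs were summed per library and class. Levels are counts per 1000000 UMIs of that sum after TMM scaling over all classes and libraries together (CPM). For single clusters and marker genes the plain number of UMIs per 1000000 UMIs is given (UPM). Such levels compare classes for 1 gene and do not compare genes with each other. Orders of classes cover these 7 unless a smaller class is named.

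Some features of the libraries touch the values below. The osteochondral class held 3502 and 2345 barcodes in Ctrl but 122 and 171 in HLU. Of these, 3259 and 2228 in Ctrl but 68 and 127 in HLU had at least 2% of their UMIs from 39 skeletal genes. RNA of these genes made up 11.0% and 12.2% of osteochondral UMIs in Ctrl against 7.87% and 5.13% in HLU. In the other 6 classes it made up 0.187% to 0.662% of UMIs in the Ctrl libraries, against 0.0052% to 0.149% in HLU. HLU replicate 2 was the deepest library, with 99849070 UMIs against 47819046 to 61296053, and immediate early genes, which rise on handling of cells, were at their lowest there in each of the 7 classes. Over the pooled libraries monocytes carried 5 of their 6 markers (Vcan, Csf1r, Ms4a6c, F13a1 and Ccr2). Ly6c2 stood at 219, 323, 957 and 1010 UPM in Ctrl replicates 1 and 2 and HLU replicates 1 and 2. It was not above the 1012 of all other barcodes pooled over the libraries. Against other clusters of the same library, all 6 markers were raised in Ctrl replicates 1 and 2 and HLU replicate 1. In HLU replicate 2 it was 5 of 6. In monocytes of HLU replicate 2 F13a1 was 102 UPM, against 594 to 668 in the other 3 libraries, and Ccr2 was lowest there too, below the 179 to 244 of the others. The libraries shared 99 barcodes between 2 of them and 1 among 3.

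**Figure D1:**
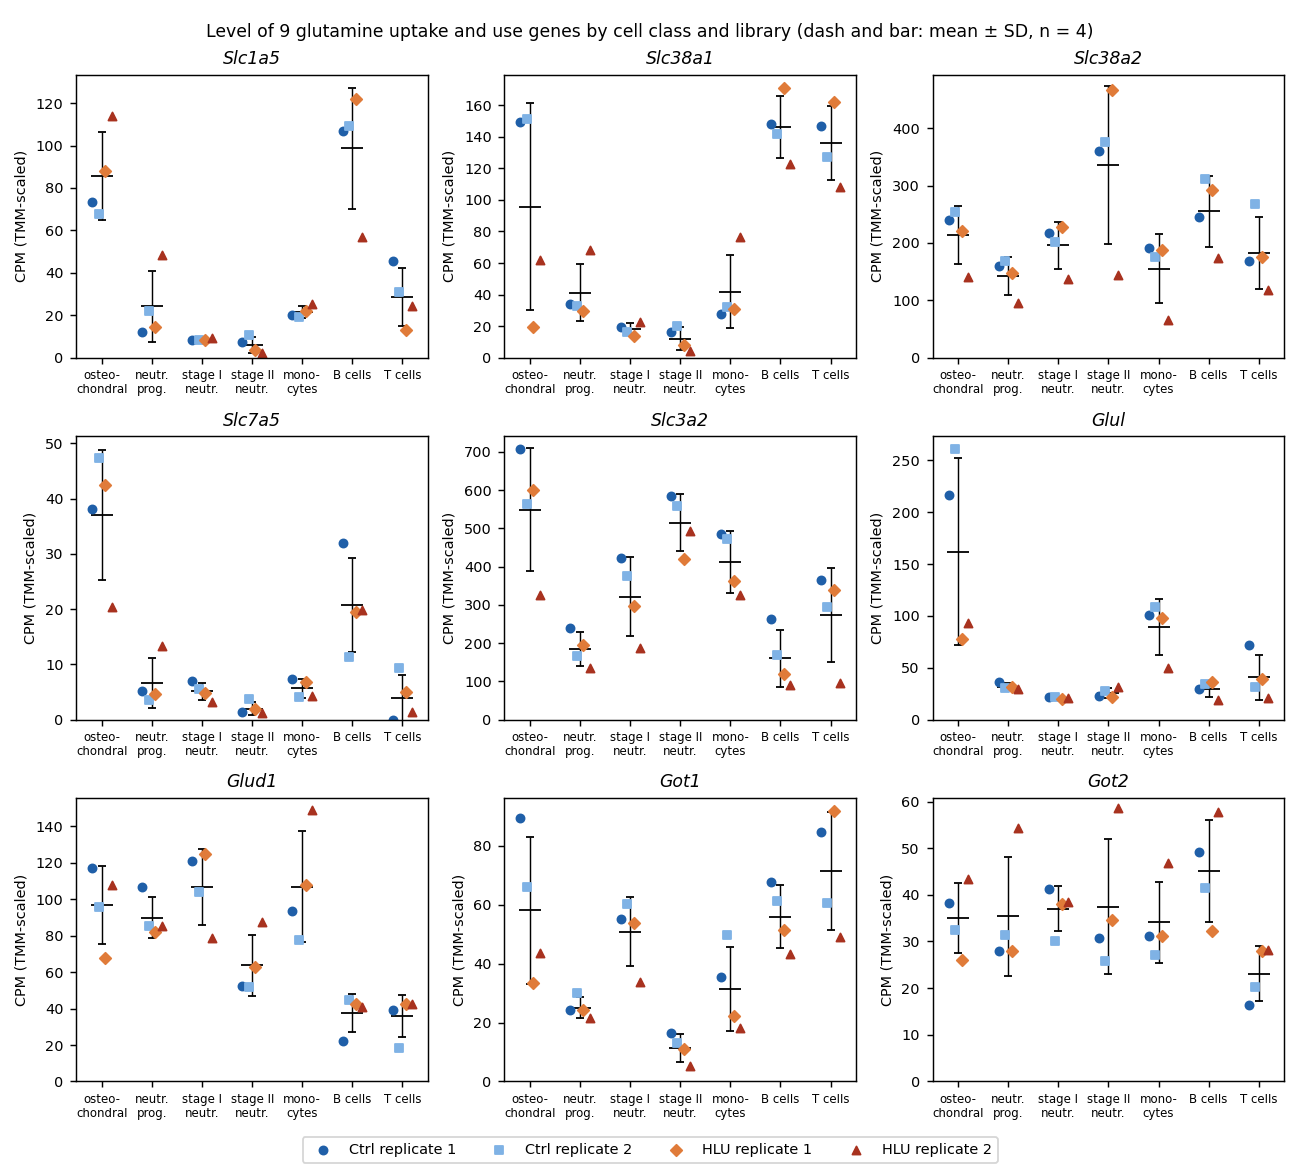
Level of each of the 9 genes (y axis, TMM-scaled counts per 1000000 UMIs of a class, linear from 0) in 7 cell classes (x axis). Each point is 1 library, dashes and bars are mean ± SD over the 4 libraries. Slc1a5 stands high in osteochondral and B cells, Slc7a5 in osteochondral cells, Glul in osteochondral cells and monocytes of the Ctrl libraries, and the point of HLU replicate 2 is the lowest for Slc38a2 in each class.

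Slc1a5 (ENSMUSG00000001918, protein-coding like the other 8 genes, mm10 chromosome 7, 16781340 to 16798274, + strand by the GENCODE annotation) was highest in B cells and osteochondral cells. In B cells it stood at 107 and 109 CPM in Ctrl, and HLU gave 122 and 57.1. In osteochondral cells the values were 73.2 and 67.8 in Ctrl and 88.1 and 114 in HLU. Ranges of these classes overlapped, and osteochondral cells stood apart from T cells, which ranged from 13.1 to 45.6 CPM. Monocytes came to 20.3 and 19.1 CPM in Ctrl and 22.1 and 25.4 in HLU, above every stage I value (8.30 to 9.23 CPM) and within the range of neutrophil progenitors (12.1 to 48.4 CPM). Stage II neutrophils were lowest, at 2.32 to 10.7 CPM. Slc1a5 was higher in osteochondral cells than in monocytes by 1.96 ± 0.365 on the log2 scale (SE; edgeR quasi-likelihood test, Benjamini-Hochberg adjusted p = 7.23e-05), higher in monocytes than in stage II neutrophils by 1.98 ± 0.436 (adjusted p = 3.45e-04) and higher in B cells than in monocytes by 2.21 ± 0.373 (adjusted p = 2.80e-05). Osteochondral and B cells differed by -0.25 ± 0.352 (adjusted p = 0.577), which did not pass.

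The B cell level of Slc1a5 came from unequal parts. In a cluster of 212 barcodes led by Vpreb1 and Igll1, which encode the surrogate light chain of B cell precursors, it reached 345 UPM, against 88.8 in the 1182 barcodes of the other B cell cluster. The precursor cluster made up 26.9% and 13.9% of B cells in Ctrl and 23.9% in HLU replicate 1, but 0.481% in HLU replicate 2, which also had the lowest Slc1a5 in B cells. Within the larger cluster the 4 libraries were close, at 92.0 and 84.6 UPM in Ctrl and 96.1 and 80.5 in HLU. When each barcode was thinned to 1000 UMIs, a depth that all barcodes reached, 11.8% of B cells, 5.73% of osteochondral cells, 2.15% of monocytes and 0.455% of stage II neutrophils held a Slc1a5 UMI. Unthinned, the shares were 30.8%, 35.0%, 20.8% and 0.943%.

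Slc38a1 (ENSMUSG00000023169, chromosome 15, 96571418 to 96642913, - strand) was highest in B cells, T cells and, in the Ctrl libraries, osteochondral cells. B cells held 148 and 142 CPM in Ctrl and 171 and 123 in HLU, and T cells held 147 and 127 CPM in Ctrl and 162 and 108 in HLU. Osteochondral cells matched them in the Ctrl libraries, at 149 and 151 CPM, and stood below them in the HLU libraries, at 19.8 and 62.2. In both HLU libraries osteochondral cells also lay below monocytes and neutrophil progenitors, though without TMM scaling they lay above progenitors in HLU replicate 2. Monocytes stood at 27.7 and 32.4 CPM in Ctrl and 30.6 and 76.3 in HLU, neutrophil progenitors at 29.5 to 68.0, stage I neutrophils at 13.5 to 22.6 and stage II neutrophils at 4.18 to 20.1. Only the step from progenitors to stage I neutrophils separated neighbouring classes without overlap. B cells exceeded monocytes by 1.84 ± 0.448 (log2, SE; adjusted p = 0.00146) and monocytes exceeded stage II neutrophils by 1.88 ± 0.493 (adjusted p = 0.00181), while B and T cells differed by 0.12 ± 0.446 (adjusted p = 0.910), which did not pass.

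Slc38a2 (ENSMUSG00000022462, chromosome 15, 96687392 to 96699730, - strand), the carrier that cells raise when amino acids are short, was present at 65.6 CPM or more in every class and library. Neighbouring classes overlapped throughout the order of their means, from stage II neutrophils (361 and 375 CPM in Ctrl, 466 and 144 in HLU) down to neutrophil progenitors (160 and 169 in Ctrl, 148 and 96.0 in HLU). Without TMM scaling B cells had the highest mean, at 341 UPM against 259 in stage II neutrophils. Unlike for Slc1a5, monocytes held less than stage II neutrophils by -1.12 ± 0.181 (log2, SE; adjusted p = 9.01e-06), and stage I less than stage II neutrophils by -0.70 ± 0.180 (adjusted p = 0.00221). In each of the 7 classes the lowest of the 4 values was that of HLU replicate 2, whereas over all genes this library was lowest in 18.9% to 35.1% of genes, depending on the class. Immediate early genes were lowest in the same library, and their part in these values was not tested.

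Slc7a5 (ENSMUSG00000040010, chromosome 8, 121881150 to 121907694, - strand), the light chain that carries the amino acids, was scarce in 5 of the 7 classes, all but osteochondral and B cells. Osteochondral cells held 38.1 and 47.3 CPM in Ctrl and 42.4 and 20.3 in HLU, and B cells 32.0 and 11.3 in Ctrl and 19.4 and 19.9 in HLU. Neutrophil progenitors, both neutrophil stages and monocytes stayed between 1.16 and 13.4 CPM. In T cells of Ctrl replicate 1 it had 0 of 223141 UMIs, which allows up to 13.4 UPM (3 counts, counting error only), and the other T cell values were 1.45 to 9.30 CPM. Osteochondral cells exceeded monocytes by 2.74 ± 0.421 (log2, SE; adjusted p = 6.00e-06), and B cells exceeded monocytes by 1.86 ± 0.443 (adjusted p = 0.00121). Among smaller classes, 3 exceeded the B cell mean. Basophils had a mean of 71.0 UPM (41.7 to 98.9 over 4 libraries, 139 barcodes), erythroid cells 81.8 (39.2 to 118) and megakaryocytes 30.1 (21.5 to 41.8), against 39.1 in osteochondral cells and 27.5 in B cells on the same scale. The main erythroid cluster held 114 UPM over 348 barcodes, 310 of them from HLU replicate 2 and 5 and 8 from Ctrl replicates 1 and 2.

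Slc3a2 (ENSMUSG00000010095, chromosome 19, 8706882 to 8723369, - strand), the heavy chain that SLC7A5 shares with other carriers, did not follow its partner. Its means fell from osteochondral cells (706 and 563 CPM in Ctrl, 600 and 326 in HLU) and stage II neutrophils (585 and 559 in Ctrl, 419 and 492 in HLU) to B cells (262 and 169 in Ctrl, 119 and 91.2 in HLU), and all neighbours in that order overlapped. B cells, next to osteochondral cells in mean Slc7a5, had the lowest mean Slc3a2, below monocytes by -1.45 ± 0.226 (log2, SE; adjusted p = 1.05e-05), though without TMM scaling progenitors lay lower, at 160 UPM against 210 in B cells. Across the 28 sums of library and class the log2 levels of the partners had a Pearson r of -0.00131, while Slc1a5 and Slc38a1 had 0.790 and Slc1a5 and Slc7a5 had 0.678; these are descriptions, since sums of 1 library share its depth and its free RNA. A small osteochondral cluster of 417 barcodes led by Derl3 and Creld2, genes of protein folding in the endoplasmic reticulum, held 1772 UPM of Slc3a2, against 438 to 648 in the other 5 osteochondral clusters. It held no barcode of HLU replicate 2.

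Glul (ENSMUSG00000026473, chromosome 1, 153899944 to 153909723, + strand), the enzyme that makes Gln, was highest of the 7 classes in osteochondral cells, with 217 and 261 CPM in Ctrl and 77.9 and 93.5 in HLU. Monocytes followed, at 101 and 109 CPM in Ctrl and 97.8 and 49.7 in HLU. Their ranges overlapped because the HLU osteochondral values lay within those of monocytes. Neutrophil progenitors, both neutrophil stages, B cells and T cells lay at 19.2 to 71.7 CPM. Osteochondral cells exceeded monocytes by 0.83 ± 0.280 (log2, SE; adjusted p = 0.0151) and B cells by 2.36 ± 0.307 (adjusted p = 5.56e-07), and monocytes exceeded stage II neutrophils by 1.69 ± 0.296 (adjusted p = 2.45e-05). Without Ctrl replicate 1, without Ctrl replicate 2, or with osteochondral barcodes of at least 2% skeletal UMIs alone, the excess over monocytes no longer passed. Thinned to 1000 UMIs, 13.5% of osteochondral cells, 7.80% of monocytes and 1.67% of stage II neutrophils held a Glul UMI, against 43.6%, 45.0% and 4.52% unthinned.

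Within the osteochondral class Glul differed strongly between clusters. A cluster of 789 barcodes led by Npy and Clic5 held 588 UPM, 458 and 787 in the Ctrl libraries and 211 in the 24 barcodes of HLU replicate 2. The clusters led by Myoc and Ogn (342), Fgf7 and Cxcl5 (268) and Derl3 and Creld2 (246) followed. The clusters led by Col10a1 and Cytl1 (87.4) and by Matn3 and Col9a1 (34.8), genes of cartilage matrix for the most part, were lowest. Slc1a5 had another order, with 115 UPM in the Matn3 and Col9a1 cluster and 37.2 to 65.9 in the other 5. Slc38a1 reached 275 in the Derl3 and Creld2 cluster and 193 in the Col10a1 and Cytl1 cluster, against 34.4 to 104 in the other 4. Outside the 7 classes, megakaryocytes had a mean of 194 UPM of Glul (106 to 250 over 4 libraries, 141 barcodes), above the 161 of the whole osteochondral class, and basophils had 129 (108 to 166), above the 100 of monocytes. The range of both overlapped with that of osteochondral cells (101 to 233 UPM). Erythroid cells spread from 78.3 to 1269. Both of these were Ctrl values, where the libraries held 5 and 8 such barcodes, and the HLU mean was 138 UPM. The 62 resident macrophages held 467 UPM, and 54 of these barcodes came from HLU replicate 2.

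**Figure D2:**
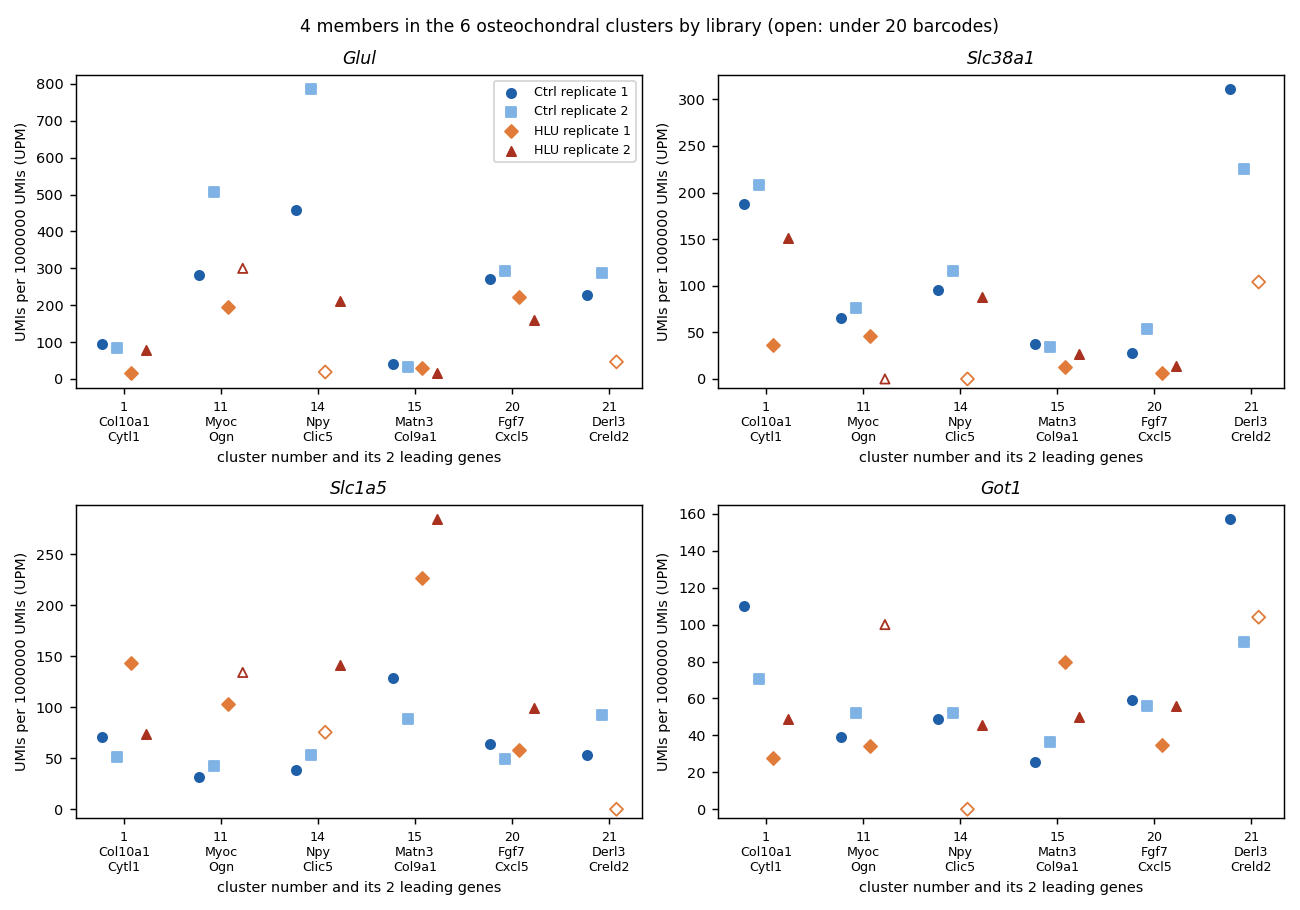
Glul, Slc38a1, Slc1a5 and Got1 (y axes, UPM, linear) in the 6 osteochondral clusters (x axes, cluster number and its leading genes), 1 point per library, open where a library had under 20 barcodes in the cluster. Glul peaks in the Npy and Clic5 cluster at 458 and 787 in the Ctrl libraries, and Slc1a5 in the Matn3 and Col9a1 cluster, where the HLU libraries reach 227 and 284.

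Glud1 (ENSMUSG00000021794, chromosome 14, 34310727 to 34345265, + strand), which oxidises glutamate in mitochondria, had its highest means in monocytes, stage I neutrophils, osteochondral cells and progenitors. Monocytes held 93.5 and 77.6 CPM in Ctrl and 108 and 149 in HLU, and stage I neutrophils held 121 and 104 in Ctrl and 125 and 79.0 in HLU. Osteochondral cells (67.8 to 117 CPM) and progenitors (82.1 to 107) overlapped with both. Stage II neutrophils came to 52.4 and 52.1 in Ctrl and 62.6 and 87.6 in HLU, and stood apart from B cells (22.1 to 44.7). Without TMM scaling they did not: their mean was 45.4 UPM, below B cells (50.8) and T cells (48.8), with overlapping ranges. On that scale stage I neutrophils were the lowest class in HLU replicate 2. Monocytes exceeded stage II neutrophils by 0.74 ± 0.238 (log2, SE; adjusted p = 0.00852), and B cells lay below monocytes by -1.46 ± 0.250 (adjusted p = 3.33e-05) and below osteochondral cells, which exceeded them by 1.34 ± 0.250 (adjusted p = 7.22e-05).

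Got1 (ENSMUSG00000025190, chromosome 19, 43499752 to 43524605, - strand), the cytosolic aspartate transaminase, was far lower in stage II than in stage I neutrophils. Stage I neutrophils held 55.3 and 60.2 CPM in Ctrl and 54.0 and 33.7 in HLU, while stage II neutrophils held 16.4 and 13.1 in Ctrl and 11.0 and 5.11 in HLU. This difference was 2.23 ± 0.249 on the log2 scale (SE; adjusted p = 9.82e-08) and the 4 libraries of each stage did not overlap. An unnamed cluster of 1887 barcodes, led by Gpr27 and Retnlg, with Ly6g, Mmp8 and Mmp9 among its leading genes, was in neither class. How Got1 changes between the 2 stages is therefore not shown. Got1 was also higher in stage I neutrophils than in progenitors, which were at -0.97 ± 0.224 relative to them (adjusted p = 8.64e-04). T cells (49.2 to 91.9 CPM), osteochondral cells (33.3 to 89.5) and B cells (43.4 to 67.6) overlapped at the top of the order. Monocytes held 35.6 and 49.8 CPM in Ctrl and 22.1 and 18.1 in HLU.

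Of the promoters searched for the 9 genes, only that of Got1 held a match to TGATGNAA. This is the core of the C/EBP-ATF response elements through which ATF4 acts on genes of amino acid supply. Of the 9 genes 6 matched a promoter in the RefSeq table (GRCm38.p6), and the 250 bases before each start were searched on either strand (TTNCATCA on the other). This motif stood in 1 of these 6, in 4 of 45 other Gln genes with a promoter (Slc7a11, Pycr1, Asns and Slc7a7), and in 3.45% of 32851 promoters. Slc1a5, Slc38a1 and Slc7a5 had no promoter entry and were not searched. For Slc3a2 the searched stretch (chr19:8713898-8714147) lies inside the gene span given above. A match is a run of letters and not a shown binding site. The stretches around the match in Got1, in the cystine-glutamate exchanger gene Slc7a11 and in the proline synthesis gene Pycr1, both described below, are shown because the same letters recur in them, 5′ to 3′ on the strand of the gene with the match in capitals; Slc7a11 holds 2 matches on opposite strands.
Got1, chr19:43524680-43524727: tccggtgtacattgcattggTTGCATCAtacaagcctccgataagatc
Slc7a11, chr3:50443652-50443699: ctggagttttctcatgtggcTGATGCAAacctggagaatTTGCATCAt
Pycr1, chr11:120643824-120643871: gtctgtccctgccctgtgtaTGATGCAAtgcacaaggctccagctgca
The match began at base -102 from the start of Got1 and at base -103 from that of Pycr1.

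Got2 (ENSMUSG00000031672, chromosome 8, 95864134 to 95888547, - strand), the mitochondrial transaminase, varied least between classes. Class means lay between 23.1 CPM in T cells and 45.1 in B cells, and all neighbours overlapped. Of 7 contrasts between classes 1 passed, B cells over T cells by 0.92 ± 0.222 (log2, SE; adjusted p = 0.00381), with 49.2 and 41.4 CPM in Ctrl and 32.3 and 57.7 in HLU for B cells, and 16.3 and 20.2 in Ctrl and 27.9 and 28.2 in HLU for T cells.

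**Figure D3:**
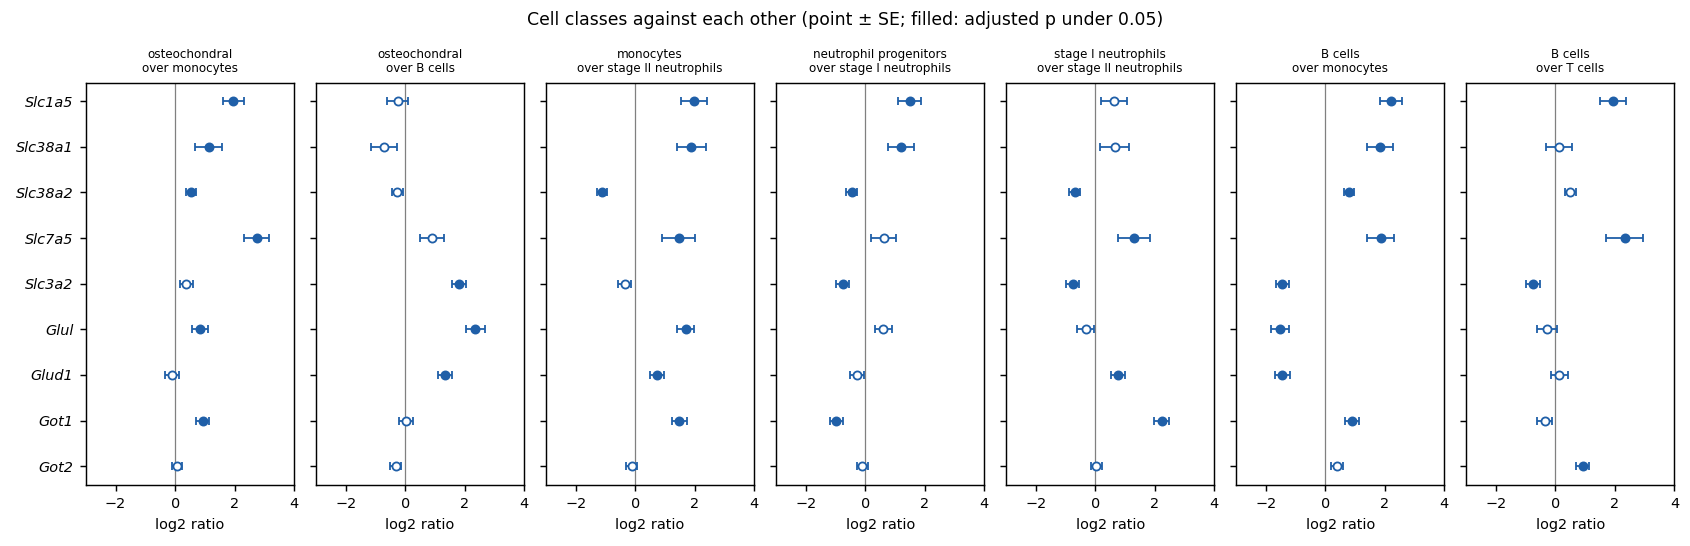
Log2 ratio between classes (x axes) for each of the 9 genes (y axes) in 7 contrasts, as estimate ± SE over 28 class sums with library as a block; filled points have an adjusted p under the threshold. In monocytes over stage II neutrophils 6 filled points lie right of 0 and Slc38a2 alone of the filled ones lies left.

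Over the 7 contrasts 38 of 63 tests of the 9 genes passed an adjusted p of 0.05, a share to be read against the many genes that differ between cell classes. In osteochondral cells against monocytes 6 of 9 passed, all higher over the 4 libraries together, beside 51.8% of all genes tested. Of these, Slc38a1 was lower than in monocytes in both HLU libraries (19.8 against 30.6 and 62.2 against 76.3 CPM). Glul was lower in HLU replicate 1 (77.9 against 97.8 CPM). Their calls held in 8 and 9 of 12 settings, and that of Slc38a2 in 8. Against B cells 3 of 9 passed, all higher, beside 52.6%. In monocytes against stage II neutrophils 7 passed, 6 higher and 1 lower, beside 64.4%, with a median log2 difference of 1.47 over the 9 genes and 0.26 over all genes. In progenitors against stage I neutrophils 5 passed, 2 higher (Slc1a5, Slc38a1) and 3 lower (Slc38a2, Slc3a2, Got1), beside 50.5%. The calls of Slc38a1 and Slc38a2 in this contrast each held in 7 of 12 settings. That of Slc38a1 was lost on leaving out any 1 library. In stage I against stage II neutrophils 5 passed, 3 higher (Slc7a5, Glud1, Got1) and 2 lower (Slc38a2, Slc3a2), again beside 50.5%. There Slc7a5 (edgeR, adjusted p = 0.0469) had 2 and 9 UMIs in Ctrl and 6 and 5 in HLU stage II sums. Its call held in 7 of 12 settings and was lost with DESeq2, and that of Glud1 held in 8 of 12. In B cells against monocytes 8 passed, 5 higher and 3 lower (Slc3a2, Glul, Glud1), beside 49.9%, and in B against T cells 4 passed, 3 higher (Slc1a5, Slc7a5, Got2) and 1 lower (Slc3a2), beside 21.8%. These shares lie on both sides of the background and are no result about the set as such. TMM scaling moves the median over all genes for monocytes against stage II neutrophils by 0.61 on the log2 scale, and no call of the 9 genes changed direction without it.

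The study asks how bone cells, and monocytes above all, respond to unloading. In monocytes Slc1a5 stood at 20.3 and 19.1 CPM in Ctrl and 22.1 and 25.4 in HLU, higher in both HLU libraries by a small margin (log2 ratio of HLU to Ctrl 0.19 ± 0.279, SE; adjusted p = 0.881). Got1 was lower in both HLU libraries, at 22.1 and 18.1 against 35.6 and 49.8 CPM (-1.18 ± 0.304, adjusted p = 0.661). Glul was 97.8 and 49.7 CPM in HLU against 101 and 109 in Ctrl (-0.59 ± 0.396, adjusted p = 0.80), and its groups overlapped without TMM scaling. Slc3a2 was lower in both HLU libraries (361 and 326 against 486 and 473; -0.57 ± 0.292, adjusted p = 0.80). Glud1 was higher in both HLU libraries (108 and 149 against 93.5 and 77.6 CPM; 0.50 ± 0.298, adjusted p = 0.80). Slc38a1, Slc38a2 and Slc7a5 overlapped between groups, and Got2 was at 31.2 and 46.9 CPM in HLU against 31.2 and 27.2 in Ctrl. None of the 9 passed in monocytes, where 0.0941% of all genes did.

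In osteochondral cells Glul had the lowest p of the 9 genes, at 217 and 261 CPM in Ctrl against 77.9 and 93.5 in HLU (-1.36 ± 0.244, adjusted p = 0.0733). Slc38a1 was 149 and 151 CPM against 19.8 and 62.2 (-1.74 ± 0.515, adjusted p = 0.150), Got1 89.5 and 66.1 against 33.3 and 43.5 (-0.90 ± 0.264, adjusted p = 0.148), and Slc1a5 73.2 and 67.8 against 88.1 and 114 (0.64 ± 0.228, adjusted p = 0.198). Slc38a2 was 221 and 141 CPM in HLU against 240 and 254 in Ctrl, but per plain UMIs the groups overlapped, at 288 and 168 UPM against 217 and 227, and the HLU mean was the higher (228 against 222). Slc7a5, Slc3a2, Glud1 and Got2 overlapped on either scale. The TMM scaling of these CPM moves the median of all genes by 0.475 on the log2 scale in this class. Without it the group means of 5 genes (Slc38a2, Slc7a5, Slc3a2, Glud1 and Got2) change order. Glul, Slc38a1 and Got1 stayed lower and Slc1a5 higher in both HLU libraries. Tests of HLU against Ctrl took TMM factors within each class, so a ratio can differ in sign from CPM means. Got2 had means of 35.3 CPM in Ctrl and 34.7 in HLU but a log2 ratio of 0.10. None of the 9 passed, in a comparison where 0% of all genes did (0 of 13394, with 2921 at an unadjusted p under 0.05). With DESeq2 Glul (adjusted p = 5.98e-04) and Slc38a1 (adjusted p = 0.0301) passed, beside 7.97% of all genes, and without the filter on low counts Glul, Slc38a1 and Got1 passed, beside 9.88%.

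The osteochondral clusters were not held in equal shares by the groups. The Fgf7 and Cxcl5 cluster, at 268 UPM of Glul, made up 6.37% and 8.19% of osteochondral barcodes in Ctrl against 33.6% and 19.9% in HLU. The Npy and Clic5 cluster, highest for Glul, accounted for 12.8% and 13.3% of the Ctrl barcodes against 2.46% and 14.0% in HLU (3 and 24 barcodes). The part of these shares in Glul over the class was not tested. The Matn3 and Col9a1 cluster, highest for Slc1a5, made up 8.11% and 15.1% in Ctrl against 16.4% and 18.1% in HLU. The clusters highest for Slc38a1 were those led by Derl3 and Creld2 and by Col10a1 and Cytl1. The former made up 7.91% and 5.67% in Ctrl against 5.74% and 0% in HLU. The latter made up 41.4% and 47.0% in Ctrl against 21.3% and 40.4% in HLU. The part of such shares in Slc1a5 and Slc38a1 over the class was not tested either. RNA of 7 neutrophil genes was 0.445% and 0.816% of osteochondral UMIs in Ctrl and 2.05% and 2.29% in HLU.

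The Col10a1 and Cytl1 cluster, which held 26 and 69 barcodes of the HLU libraries, was also fitted alone. Glul in it was 93.7 and 82.8 UPM in Ctrl and 16.1 and 78.4 in HLU, and its log2 ratio was -1.09 (adjusted p = 0.376), against -1.36 over the class. Slc38a1 had -1.32 (adjusted p = 0.322) against -1.74, and Slc1a5 0.473 (adjusted p = 0.50) against 0.64. Got1 lay farther from 0 than over the class, at -1.49 (adjusted p = 0.123) against -0.90, and Slc7a5 changed sign, at 0.693 (adjusted p = 0.555) against -0.350. The other 4 genes lay between -0.446 and 0.105, among them Glud1, which also changed sign (0.0619 against -0.158). None of the 9 passed, beside 1.69% of all genes (190 of 11245). The part of neutrophil RNA in the differences over the class was not tested.

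In stage II neutrophils Slc1a5 stood at 7.20 and 10.7 CPM in Ctrl and 3.68 and 2.32 in HLU (-1.78 ± 0.529, adjusted p = 0.291), and Slc38a1 at 16.4 and 20.1 in Ctrl against 7.97 and 4.18 in HLU (-1.78 ± 0.497, adjusted p = 0.242). Both genes were high in osteochondral cells of the Ctrl libraries. Skeletal RNA in stage II neutrophils was 0.662% and 0.552% of UMIs in Ctrl against 0.0402% and 0.0052% in HLU, and its part was not tested. None of the 8 genes tested passed, beside 2.19% of all genes. None of 9 passed in stage I neutrophils (1.58% of all genes), where Slc1a5 was nearly level at 8.45 and 8.30 CPM in Ctrl and 8.37 and 9.23 in HLU. In neutrophil progenitors (0.190%) none of 9 passed, and the highest values of Slc1a5, Slc38a1, Slc7a5 and Got2 were those of HLU replicate 2. In B cells (0.584%) none of 9 passed, with Slc3a2 at 262 and 169 CPM in Ctrl and 119 and 91.2 in HLU (-1.07 ± 0.343, adjusted p = 0.732). In T cells (0.337%) none of 8 passed; Slc7a5 had too few counts to be tested in this class and in stage II neutrophils.

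**Figure D4:**
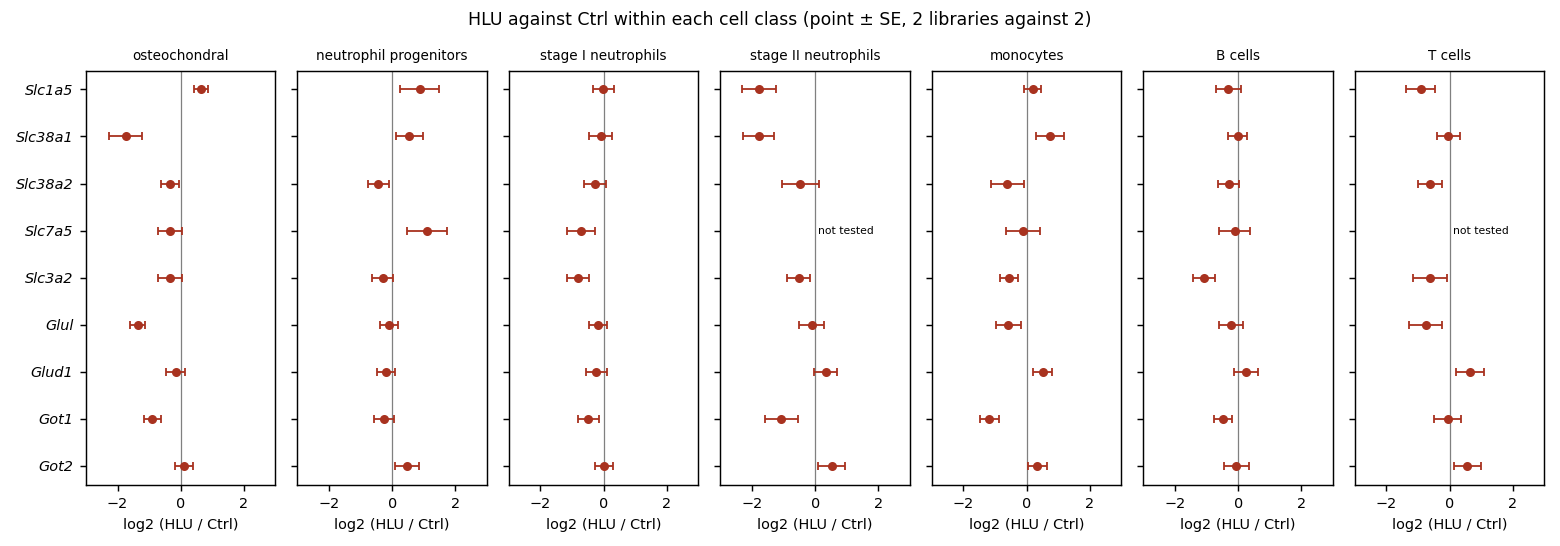
Log2 ratio of HLU to Ctrl (x axes) for each of the 9 genes (y axes) in 7 cell classes, as estimate ± SE from 2 libraries against 2; a gene with too few counts is marked as not tested. The osteochondral estimates of Glul (-1.36) and Slc38a1 (-1.74) and the monocyte estimate of Got1 (-1.18) lie far from 0 relative to their SE, and none of the 61 estimates passed after adjustment.

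An unadjusted p under 0.05 was found in 8 of 61 tests of HLU against Ctrl (edgeR), 4 of them in osteochondral cells. Over all genes the share by class was 4.82% to 21.8%, highest in osteochondral cells. In all, 0 of the 61 tests passed with edgeR and 2 passed with DESeq2. Single libraries set this count: without HLU replicate 1, when HLU replicate 2 alone stood for unloading and was taken to vary like the other group, 25 passed beside 6.98% to 46.2% of all genes by class, and without HLU replicate 2 it was 3 (osteochondral Glul and Slc38a1 and stage II Slc38a1) beside 1.57% to 8.36%. Without either Ctrl library it was 0. The genes called over all classes were mostly lower in HLU: 173 of 173 in stage II and 158 of 161 in stage I neutrophils. With 2 libraries against 2 an exact permutation test cannot go below p = 0.333.

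Whether the response differed between classes was tested for monocytes against 3 other classes. The difference for Slc38a1 between monocytes and osteochondral cells was 2.51 ± 0.583 on the log2 scale (SE; adjusted p = 0.0138), from 27.7 and 32.4 CPM in Ctrl to 30.6 and 76.3 in HLU in monocytes, and from 149 and 151 to 19.8 and 62.2 in osteochondral cells. This was the 1 call among 9 genes, beside 3.80% of all genes, and it was lost without Ctrl replicate 1 (2.65, adjusted p = 0.388) or Ctrl replicate 2 (2.67, adjusted p = 0.330), where the calls over all genes fell from 493 to 20 and 101. Against stage II neutrophils none of 9 passed, beside 0.655% of all genes, with Slc38a1 at 2.60 ± 0.666 (adjusted p = 0.0872) and Slc1a5 at 2.14 ± 0.729 (adjusted p = 0.289). Against B cells none of 9 passed, beside 0.0540%. Over these 27 tests 3 had an unadjusted p under 0.05, beside 5.17% to 13.2% of all genes by comparison, and DESeq2 called 1.

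Other genes of Gln transport and use numbered 53 in 5 lists, and 43 of them were tested between classes. In monocytes against stage II neutrophils 27 passed (62.8%), 26 of them higher, beside 64.4% of all genes, and in progenitors against stage I neutrophils 22 passed (51.2%), 17 higher, beside 50.5%. In the progenitor comparison 8 of 11 tested genes of the glutaminolysis, transamination and proline list were higher and 1 lower, with a median log2 difference of 2.37 against 0.0241 over all genes. In osteochondral cells 29 passed against monocytes (19 higher, 10 lower; 67.4% beside 51.8%) and 23 against B cells (16 higher, 7 lower; 53.5% beside 52.6%). In stage I against stage II neutrophils 20 passed (15 higher, 5 lower; 46.5% beside 50.5%), in B cells against monocytes 28 (13 higher, 15 lower; 65.1% beside 49.9%), and in B against T cells 7 (6 higher, 1 lower; 16.3% beside 21.8%). These counts describe the lists and are not set apart from the background by a test.

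Among these genes Slc38a3, another sodium-coupled Gln carrier, had 5.08 to 12.7 CPM in osteochondral cells and 0 UMIs in all 4 sums of monocytes and of B cells. Slc1a1, a glutamate carrier, had 12.2 to 32.2 CPM in osteochondral cells and at most 1 UMI in a B cell sum. Slc25a13, the mitochondrial aspartate-glutamate carrier, was at 3.26 to 12.4 CPM in progenitors, 0.211 to 1.55 in stage I neutrophils and 0 UMIs in all stage II sums, with 2.29 to 6.02 in monocytes. Mdh1, the cytosolic malate dehydrogenase that works with GOT1 in the malate-aspartate shuttle, was, like Got1, lower in stage II than in stage I neutrophils. It stood at 53.6 to 64.7 CPM in stage I and 5.11 to 13.5 in stage II neutrophils (2.77 ± 0.208 on the log2 scale, SE; adjusted p = 2.68e-10). Psat1, which uses glutamate to make phosphoserine, went from 11.8 to 43.2 CPM in progenitors to 1.99 to 4.23 in stage I neutrophils (3.13 ± 0.546, adjusted p = 4.41e-05).

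Of the light chains, Slc7a8 and Slc7a11 were higher in monocytes than in B cells, while Slc7a5 was higher in B cells, as given above. Slc7a8, another light chain of SLC3A2, stood at 41.2 to 94.1 CPM in monocytes, at most 3.27 in stage II neutrophils (5.32 ± 0.587, adjusted p = 3.54e-08) and at most 2.67 in B cells (-6.15 ± 0.691 for B cells relative to monocytes, adjusted p = 8.74e-08). Slc7a11, the light chain that exports glutamate for cystine, stood at 721 to 1171 CPM in monocytes and 1998 to 3978 in stage II neutrophils against 16.0 to 29.4 in B cells (-5.57 ± 0.576, adjusted p = 2.32e-08 for B cells relative to monocytes). The proline genes Pycr1 (1.34 to 8.69 CPM) and Prodh (3.10 to 14.0) were counted in B cells, while T cells had 0 Pycr1 UMIs in all 4 sums and 1 Prodh UMI in total.

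By HLU against Ctrl 1 of the 53 genes, of which 16 to 48 could be tested by class, passed: Gfpt2, an enzyme of the hexosamine route that takes its nitrogen from Gln. It had 14 and 25 UMIs in stage I neutrophils of Ctrl and 0 and 0 in HLU (adjusted p = 0.0270), and 11 and 22 against 1 and 1 in stage II neutrophils (adjusted p = 0.0290). This was 1 of 36 tested in stage I, beside 1.58% of all genes, and 1 of 22 in stage II neutrophils, beside 2.19%. The stage II call was lost without Ctrl replicate 1 (adjusted p = 0.216). Gfpt2 is a skeletal transcript here, at 113 and 127 CPM in Ctrl and 42.9 and 93.9 in HLU osteochondral cells, and skeletal RNA in stage I neutrophils was 0.262% and 0.298% in Ctrl against 0.0466% and 0.0088% in HLU; its part in the Gfpt2 values was not tested.

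Over the 28 sums of library and class and 11910 genes, the genes whose log2 levels ran most like Glul were Sema3c (Pearson r 0.901), Ccdc141 (0.900) and Zmiz1 (0.886). For Slc1a5 they were Ktn1 (0.935), Itfg2 (0.920) and Foxp4 (0.914), and for Slc7a5 Yars (0.887), Pomt2 (0.848) and Gga2 (0.831). Ktn1 had class means of 96.9 CPM in osteochondral cells, 89.3 in B cells, 28.7 in monocytes and 3.62 in stage II neutrophils, close to the order of Slc1a5. Zmiz1 stood at 125 CPM in osteochondral cells and 109 in monocytes and at 24.7 to 38.8 in the other 5 classes, as Glul was highest in the same 2 classes. The sums share libraries, depth and free RNA, so these values describe likeness over them and carry no test.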

How the data were processed

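Bone of 2 Ctrl and 2 HLU mice was profiled with the Single Cell 3' V3.1 kit. The authors deposited, per library, a matrix of raw UMI counts per gene and barcode (submitters' notes: Cell Ranger 6.0.0, Seurat 4.1.0, mm10), with 10000 to 10003 barcodes and 47819046 to 99849070 counts. The 9 genes, the gene lists and the comparisons were chosen with earlier results of these data known. Barcodes with 1000 to 40000 UMIs and at most 10% mitochondrial UMIs were kept, which left 89 with fewer than 200 genes out of the clustering. Libraries were integrated with anchors in Seurat 5.3.0 (2000 features without the Gln genes, 50 components, resolution 1). Barcodes with the highest scanpy 1.11.5 doublet scores were removed, a share of 0.8% for each 1000 barcodes of a library. This took from 431 of 7336 (Ctrl replicate 1) to 711 of 9430 barcodes (HLU replicate 2). A cluster took a class name from at least 3 raised markers, with thresholds set after the clusters were seen; 25 of 32 were named and 5307 barcodes stayed unnamed, so names and shares here may differ from the study's.

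Counts were summed per library and class, since cells are not replicates, and tested with edgeR 4.0.16 in R 4.3.3 (quasi-likelihood, TMM, filterByExpr, Benjamini-Hochberg over all genes tested, threshold 0.05): HLU against Ctrl within a class, 7 contrasts of classes and 3 differences of the HLU effect with library as a block. The labels do not say that 1 library is 1 mouse. For HLU against Ctrl the p-values measure the spread between libraries. With library as a block, those of the other tests measure how class differences vary between libraries. Other settings were DESeq2 1.42.0, no filter, leaving out each library, a replicate block, doublets kept, libraries clustered alone, haemoglobin at most 0.2%, osteochondral barcodes with at least 2% skeletal UMIs, and, added after the data were seen, the mature B cell cluster and 1 osteochondral cluster alone. Same-numbered libraries were not paired: their deviations correlated at -0.0896 to 0.0933 by class. Of the other Gln genes, those named are all that passed in HLU against Ctrl and the 2 with the largest change in each contrast of classes; genes most like Glul, Slc1a5 and Slc7a5 are the 3 with the highest correlation. Intervals and floors cover counting error only. The scripts were tested on simulated counts.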

Additional observations from a re-analysis of the deposited data

Results flagged for a closer look

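In 4 of 56 genes tested (Slc38a1 and 3 of the other Gln genes) the HLU effect in monocytes differed from that in osteochondral cells by the test of the difference itself, beside 3.80% of all genes (493 of 12968). Without Ctrl replicate 1 the calls over all genes fell to 20 and without Ctrl replicate 2 to 101, and none of the 4 passed in either case, with adjusted p from 0.0800 to 0.388 and from 0.118 to 0.990. Without HLU replicate 2 Gfpt2 did not pass (adjusted p = 0.152), and with libraries clustered alone Gfpt2 (0.0635) and Psat1 (0.342) did not. Slc38a1 had a difference of 2.51 (log2, adjusted p = 0.0138, edgeR), described in the report. Slc7a11 had -2.95 (adjusted p = 0.00395): osteochondral cells held 39.9 and 41.0 CPM in Ctrl and 254 and 478 in HLU, and monocytes 990 and 721 in Ctrl and 1099 and 1171 in HLU. Stage II neutrophils held 1998 to 3978 CPM of it, and neutrophil transcripts in osteochondral cells were 0.445% and 0.816% of UMIs in Ctrl and 2.05% and 2.29% in HLU; their part was not tested. Psat1 had -3.90 (adjusted p = 0.00226), with 5.42 and 4.05 CPM in Ctrl and 27.7 and 21.6 in HLU osteochondral cells, against 6.93 and 11.6 in Ctrl and 3.54 and 4.04 in HLU monocytes. Gfpt2 had -3.94 (adjusted p = 0.00727), with 2 and 24 UMIs in Ctrl and 1 and 2 in HLU monocytes, where skeletal RNA was 0.344% and 0.395% against 0.149% and 0.0527%; its part was not tested.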

How the results depend on the processing

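Tests of HLU against Ctrl gave 0 calls among the 9 genes in edgeR; DESeq2 gave 2, no filter on low counts gave 4, and leaving out 1 library gave 0 to 25 (25 without HLU replicate 1, 3 without HLU replicate 2, 0 without either Ctrl library). With the replicate number as a block it gave 0; the numbers do not pair the samples. The other settings gave 0. DESeq2 called 0.568% to 7.97% of all genes by class. Without the filter it was 1.09% to 9.88%, with 5.17% in stage II neutrophils, where Slc38a1 passed. Differences of the HLU effect between classes gave 1 call, 3 without the filter and 0 to 6 when 1 library was left out (0 without Ctrl replicate 1 or 2, 6 without HLU replicate 1, 2 without HLU replicate 2); the cause was not tested. Leaving out 1 library leaves 1 group with a single library, so counts of HLU tests and differences from such fits are no result about the 9 genes. Without HLU replicate 1 the share of all genes called in HLU against Ctrl also rose in every class, as given above. Contrasts of classes gave 38 calls and 27 to 38 under the other settings, 20 passing under each of them, and all 38 kept their sign. Without HLU replicate 1, where the count was 27, the share of all genes called also fell in each of the 7 contrasts. That share fell in each of them without either Ctrl library and without the filter too. The lower counts are therefore not shown to be particular to the 9 genes. Of the calls between B and T cells, that of Slc1a5 was lost without HLU replicate 1 and that of Got2 without HLU replicate 2. Slc7a5 had 0 and 6 T cell UMIs in Ctrl and 3 and 2 in HLU. Its call was lost without Ctrl replicate 1 and without HLU replicate 1. Slc3a2 was lower in B cells. Its call was lost without Ctrl replicate 2, without HLU replicate 1, with libraries clustered alone and with the mature B cell cluster only. The osteochondral excess over monocytes of Slc38a1 and Glul was lost without either Ctrl library, and that of Got1 when libraries were clustered alone. Without TMM factors 23 of 63 levels moved by more than 1 SD, and 3 of 9 genes stayed highest in osteochondral cells. Levels near the floor of 3 counts, as for Slc7a5 in T cells, are limited by depth.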
